A study of Mus musculus with 2 samples.

Results

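The miR-26 family of the mouse is encoded by 3 genes, Mir26a-1, Mir26a-2 and Mir26b, each inside an intron of a Ctdsp gene. These 3 were selected by their names in the annotation, out of the 2202 microRNA genes counted in the series, and all 3 were detected in the gastrocnemius, the large calf muscle. Small RNA under 30 nt was sequenced from female B6CASTF1/J mice aged 2 months, F1 hybrids of the strains C57BL/6J and CAST/EiJ. The series has 1 group of 2 libraries, labelled biological replicates 1 and 2, with no treatment and no second condition. The libraries have separate biological replicate numbers in the labels and a shared donor code, so part of the spread between the libraries may be technical.

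A microRNA is cut from a hairpin in a longer transcript, and 1 strand of the short product is loaded into an Argonaute protein. Pairing of bases 2 to 8, the seed, with a messenger RNA leads to its repression, so genes with the same seed form a family. The miR-26 hairpins lie in genes for small phosphatases that act on the C-terminal domain of RNA polymerase II. miR-26a is known from muscle cell differentiation, where Ezh2, a histone methyltransferase that holds muscle genes silent, has been described as a target.

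Mature sequences are shown because they show which genes a read can match. They come from RefSeq on GRCm38.p6, where all 3 genes were matched and carry the same coordinates as in the annotation used for counting. The 5p strands are given 5′ to 3′ with the seed in capitals.
miR-26a-5p: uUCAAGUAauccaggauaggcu
miR-26b-5p: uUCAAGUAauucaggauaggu

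The 5p sequence of miR-26a is 22 nt long and is encoded by both Mir26a-1 and Mir26a-2, letter for letter. miR-26b-5p is 21 nt long and comes from Mir26b alone. Counted from 1 at the 5′ end, the change from miR-26a-5p to miR-26b-5p is C11U and C21U, outside the seed. Among the 1018 genes of the files with a mature sequence in the RefSeq table, these 3 were the only ones with the seed UCAAGUA.

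The opposite, 3p strands differ more, and each belongs to 1 gene. They are shown with bases 2 to 8 in capitals, because they separate the Mir26a loci where the 5p strand does not.
miR-26a-1-3p: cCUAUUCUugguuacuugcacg
miR-26a-2-3p: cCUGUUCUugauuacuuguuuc
miR-26b-3p: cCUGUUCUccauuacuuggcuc

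From miR-26a-1-3p to miR-26a-2-3p there are 6 substitutions, A4G, G11A, C19U, A20U, C21U and G22C. Bases 2 to 8 of miR-26a-2-3p and miR-26b-3p are the same, and those strands differ at 4 bases farther on.

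The hairpins show how far the shared sequence reaches. The mature 5p strand is in capitals.
Mir26a-1: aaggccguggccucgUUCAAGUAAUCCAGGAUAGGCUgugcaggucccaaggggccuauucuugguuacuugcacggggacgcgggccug
Mir26a-2: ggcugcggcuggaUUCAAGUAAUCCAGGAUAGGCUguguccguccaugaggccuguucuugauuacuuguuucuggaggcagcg
Mir26b: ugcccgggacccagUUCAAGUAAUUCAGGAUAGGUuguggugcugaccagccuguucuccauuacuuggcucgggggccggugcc

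The longest run common to Mir26a-1 and Mir26a-2 is 25 nt, which is the mature strand with 3 further bases at its 3′ end and none at its 5′ end. A read of the 5p strand that stays within that run matches both genes. Outside it the hairpins diverge, with 72.5% identity over their global alignment. Mir26b shares at most 11 nt with Mir26a-1 and 10 nt with Mir26a-2. Stretches of 20 nt present in another microRNA gene numbered 6 of 71 in Mir26a-1, 6 of 65 in Mir26a-2 and 0 of 66 in Mir26b. All were shared between the Mir26a genes alone, as the plot of shared stretches shows.

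**Figure D1:**
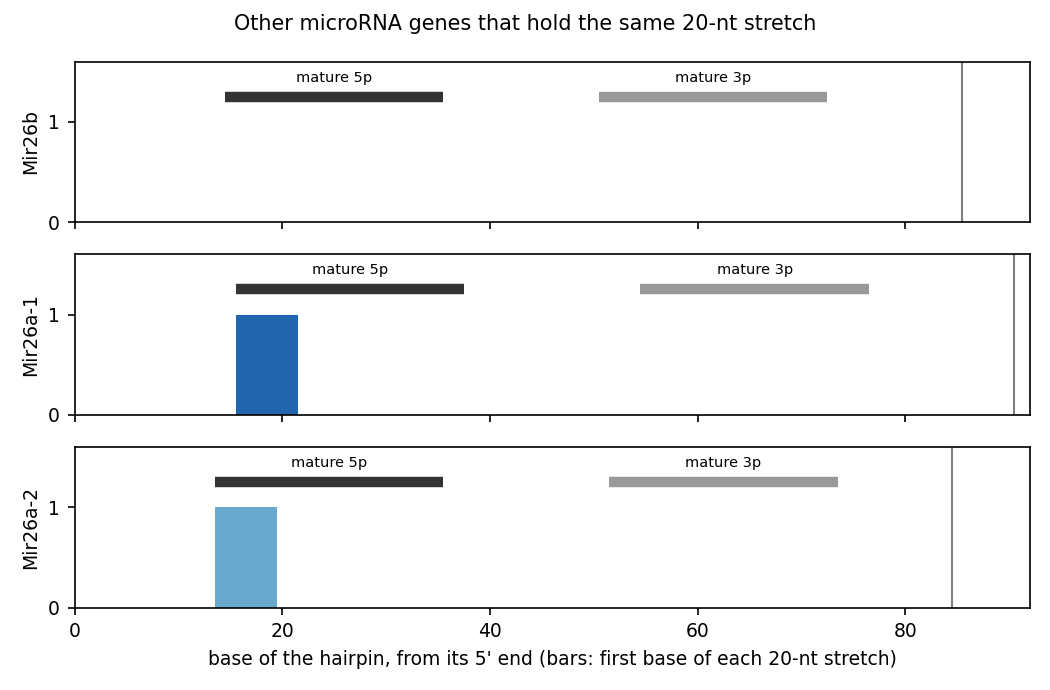
Number of other microRNA genes that hold each 20-nt stretch of the miR-26 hairpins, plotted at the stretch's first base, with the mature 5p and 3p strands as bars above and the hairpin's end as a vertical line. The 6 shared stretches of Mir26a-1 and of Mir26a-2 all start at or just after the first base of the 5p strand, and Mir26b has 0.

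The 3 hairpins have similar predicted folds despite these differences. Their lengths are 90, 84 and 85 nt for Mir26a-1, Mir26a-2 and Mir26b, and RNAfold gave minimum free energies of -49.4, -44.5 and -43.5 kcal/mol. Of the mature 5p bases, 20 of 22, 19 of 22 and 18 of 21 were paired in these predicted structures.

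All 3 genes lie on the plus strand of mm10, in the direction of their host. Mir26b (ENSMUSG00000065468.1) is on chromosome 1 from 74394310 to 74394394, in intron 4 of Ctdsp1. Mir26a-1 (ENSMUSG00000065513.1) is on chromosome 9 from 119031796 to 119031885, in intron 5 of Ctdspl. Mir26a-2 (ENSMUSG00000065430.1) is on chromosome 10 from 126995530 to 126995613, in intron 5 of Ctdsp2. Introns are numbered in the principal transcript of each host, which has 7 exons in Ctdsp1 and 8 in the other hosts.

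The introns differ in size. That of Mir26b is 564 bp long, and its hairpin lies 234 bp after the upstream exon and 245 bp before the next. The intron of Mir26a-1 is 3283 bp long, with 1543 and 1650 bp on either side. That of Mir26a-2 is 1946 bp long, with 1621 bp before the hairpin and 241 bp after it. In addition, the annotated transcripts Ctdsp2-201 and Ctdsp2-203 start at the last base of the Mir26a-2 hairpin, an overlap of 1 bp. No exon of Ctdspl or Ctdsp1 overlaps a hairpin. The host genes span 5777 bp for Ctdsp1, 21259 bp for Ctdsp2 and 117546 bp for Ctdspl. The nearest other microRNA gene to any of the 3 is Mir546, 2827 bp from Mir26a-2 on the same strand, and it had 0 counts in both libraries, under the 3 counts that a count of 0 allows.

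**Figure D2:**
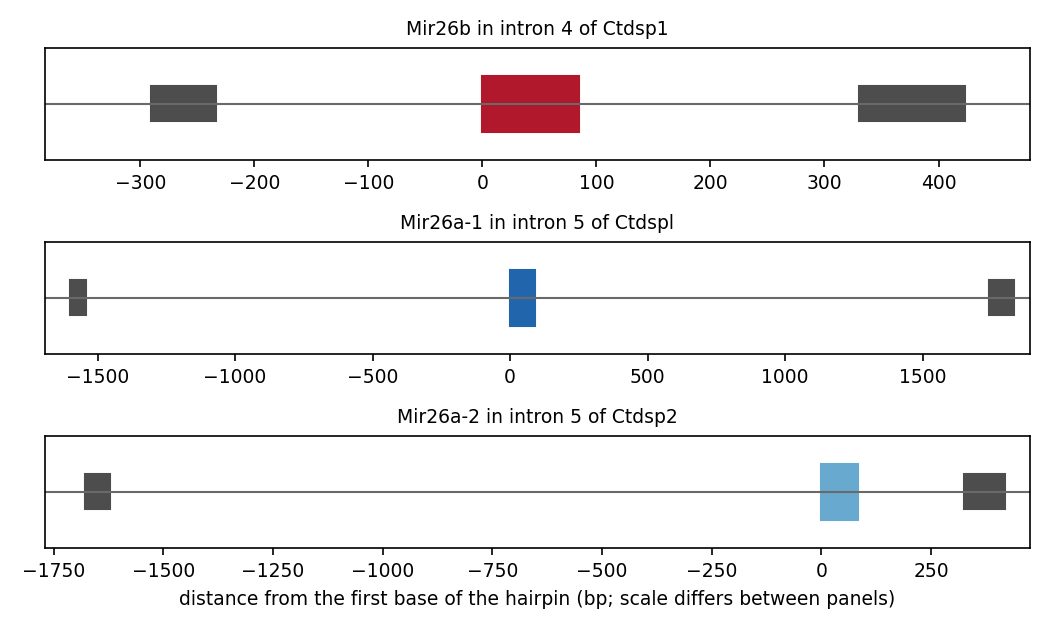
Position of each miR-26 hairpin (coloured) between the neighbouring exons (dark grey) of its host gene, as distance in bp from the first base of the hairpin, with its own scale in each panel. Mir26b sits near the middle of an intron of 564 bp, Mir26a-1 near the middle of one of 3283 bp, and Mir26a-2 is 241 bp from the downstream exon.

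Reads counted on the own strand of microRNA genes numbered 1950204 in replicate 1 and 2291821 in replicate 2, out of 9410562 and 14377558 reads listed. Values are given as CPM, the usual scaling of counts to the total of these own-strand counts, in which 3 counts are worth 1.54 and 1.31 CPM. These values are not divided by gene length, since each read is a short RNA and the hairpins are of similar length. Another 70.1% and 72.3% of the reads listed had more than 1 alignment and are in no gene. How many of them carry miR-26a-5p is not given in the counts, so the values of Mir26a-1 and Mir26a-2 cover only reads placed in 1 gene and do not give the level of the mature strand.

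Among the cell-type lists, striated muscle microRNAs held 2.79% and 4.65% of counts in replicates 1 and 2, with 9 of 9 genes detected. Of these, Mir1a-1, Mir1a-2, Mir133a-1, Mir133a-2 and Mir133b each hold 20 nt or more that also occur elsewhere among the microRNA genes. The striated muscle share therefore leaves out any of their reads that were not placed. Overlapping genes were left out of that search, so it does not cover Mir486 with its antisense gene Mir3107. The smooth muscle list held 20.3% and 9.73%, the endothelial Mir126a 12.1% and 15.7%, and the fibroblast list 4.35% and 3.18%. Most of the fibroblast share was Mir21a alone, at 42024 CPM in replicate 1 and 30322 CPM in replicate 2. Mir214 of that list was higher in replicate 2, at 1349 and 1453 CPM. Mir199a-2 and Mir199b also share 20 nt with other microRNA genes, so reads of theirs may be left out too. The leukocyte, red cell, glial and liver lists each held under 1%. Of the 5 leukocyte genes listed, 4 were found, since Mir146a is not a name in the counts. The gene named Mir146, at 525 and 284 CPM, is not in that share. Of the 3 glial genes, 1 was detected. Fewer cells of a type and less RNA per cell cannot be told apart in such tissue libraries.

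Mir26b carried nearly all reads counted for the family. It had 35325 counts in replicate 1 and 58342 in replicate 2, which is 18113 CPM (95% exact Clopper-Pearson interval 17927 to 18302) and 25457 CPM (25253 to 25661). Its mean was 21785 ± 5192 CPM (SD, n = 2), the 13th highest mean of the 278 genes with at least 10 counts in each library. It also ranked 13 in each library by itself. Intervals cover counting error only, because each rests on the counts of its own library alone. They treat reads as independent, although amplified reads are not independent molecules.

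Mir26a-1 had 561 counts in replicate 1 and 800 in replicate 2, or 288 CPM (264 to 312) and 349 CPM (325 to 374). Its mean was 318 ± 43.4 CPM (SD, n = 2), at rank 104. Mir26a-2 had 332 and 416 counts, or 170.2 CPM (152 to 189.6) and 182 CPM (164 to 199.8), with a mean of 176 ± 7.97 CPM (SD, n = 2) at rank 127. Both lay in the middle of the detected range, above 61.2% and 52.9% of detected genes in replicate 1. None of the 3 genes had a count on the opposite strand in either library.

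**Figure D3:**
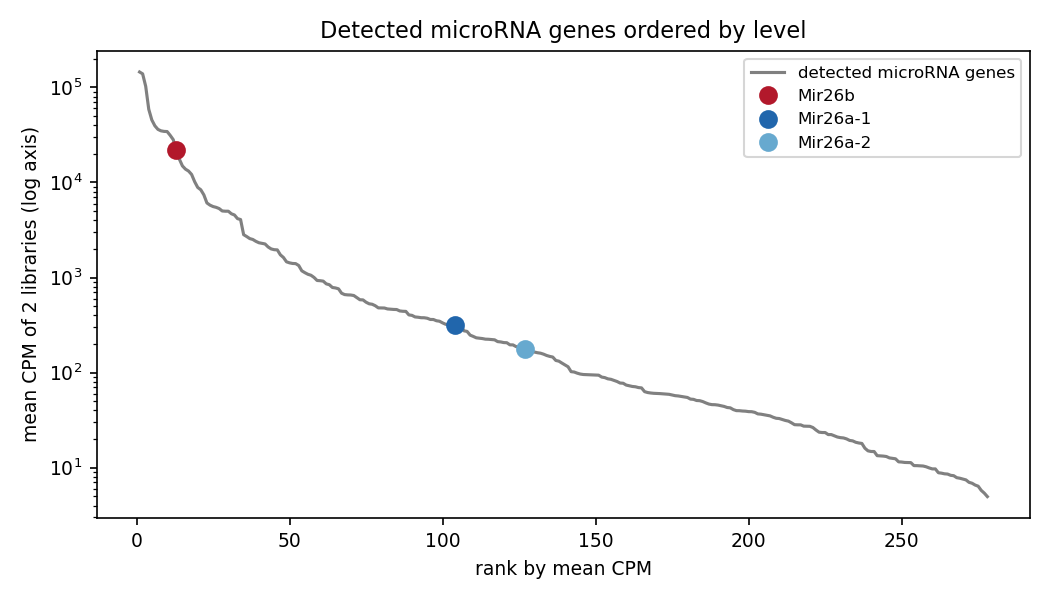
Mean CPM of the 278 detected microRNA genes on a log axis against their rank, with the miR-26 genes as coloured points. Mir26b is at rank 13, on the steep part of the curve, and Mir26a-1 and Mir26a-2 are at ranks 104 and 127, on counts of placed reads.

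The order Mir26b, Mir26a-1, Mir26a-2 was the same in both libraries, and no library's value of one gene reached that of the next. The family as a whole held 1.86% of own-strand counts (1.84 to 1.88) in replicate 1. Its share in replicate 2 was 2.60% (2.58 to 2.62), so that the mean was 2.23% ± 0.524 (SD, n = 2). Of the family's counts, Mir26b made up 97.5% (97.4 to 97.7) in replicate 1 and 98.0% (97.8 to 98.1) in replicate 2. Its counts were 39.6 and 48.0 times those of both Mir26a genes summed. This ratio compares reads placed in 1 gene and is no ratio of miR-26b to miR-26a.

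The counts placed in the Mir26a loci were also set against each other. Both loci hold the same 25-nt run, but how many reads of each were left unplaced is not recorded. The values below are therefore ratios of placed reads and not of the output of the loci. Mir26a-1 had 1.69 times the counts of Mir26a-2 in replicate 1 (exact 95% interval 1.47 to 1.94) and 1.92 times in replicate 2 (1.71 to 2.17). Counts differed from equality in each library (two-sided exact binomial test, Benjamini-Hochberg adjusted over 2 tests, p = 1.7e-14 and p = 3.3e-28), against counting error only. The direction was the same in 2 of 2 libraries. A read that stays within the 25-nt run matches both genes, so it is not among the placed reads. Which strand of the hairpin the placed reads came from is not recorded in the counts. The odds ratio of this proportion, replicate 2 over replicate 1, was 1.14 (95% Wald interval 0.950 to 1.36), so a difference between the libraries was not detectable at this depth (two-sided Fisher's exact test, adjusted p = 0.167). The proportion of Mir26b to both Mir26a genes was higher in replicate 2, with an odds ratio of 1.21 (1.11 to 1.32, adjusted p = 3.5e-05 in the same exact test). That difference too is set against counting error only, and it leaves out Mir26a reads that were not placed.

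In the comparison of the 2 libraries, none of the 3 genes was called. Calls needed an adjusted p under 0.05 and at least 2-fold, in a two-sided exact binomial test on TMM-scaled library sizes, and 11.9% of the 278 detected genes met both. The log2 ratio of replicate 2 over replicate 1 was 0.53 for Mir26b (SE 0.0097 from counting error alone), a ratio of 1.44 (1.42 to 1.46). Its adjusted p was too small to be represented, but the ratio was under 2-fold. Mir26a-1 was higher by 0.31 (SE 0.079), a ratio of 1.24 (1.11 to 1.39, adjusted exact p = 0.00020). Mir26a-2 differed by 0.13 (SE 0.11), a ratio of 1.09 (0.943 to 1.27), which was within counting error (adjusted exact p = 0.330).

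These differences lay within the range of the other detected genes. Of the detected genes, 65.8% had a smaller absolute log2 ratio than Mir26b, 46.4% a smaller one than Mir26a-1 and 21.2% a smaller one than Mir26a-2. The median over all detected genes was -0.03. The adjusted p alone, with no minimum fold, was under 0.05 for 2 of the 3 genes, both higher in replicate 2. The same held for 55.4% of all detected genes, and 24.8% of all detected genes passed it with a higher value in replicate 2. With the coefficient of variation of 0.352 that edgeR estimated from both libraries, the adjusted p of each of the 3 genes was 1 in its exact test, in which 2.52% of genes were called. That spread comes from the same 2 libraries, so this p says little about the 3 genes.

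**Figure D4:**
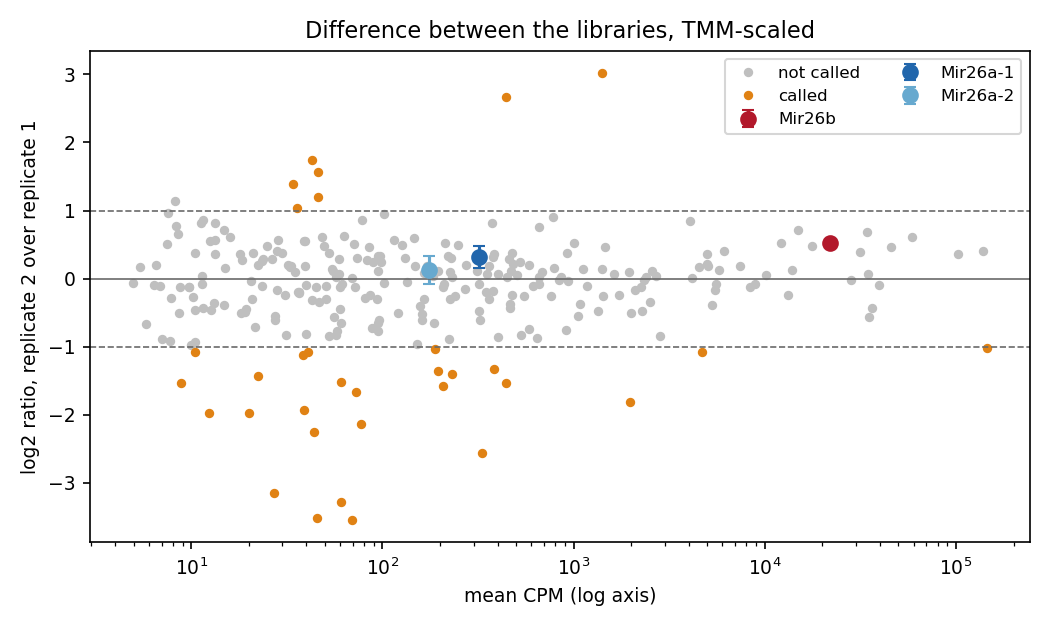
Log2 ratio of replicate 2 over replicate 1 against mean CPM on a log axis for the 278 detected genes, with dashed lines at 2-fold and orange points for called genes. The miR-26 genes, with error bars of 2 counting SE, lie between 0.13 and 0.53, inside the dashed lines.

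The direction depended on the total that counts were divided by. With CPM taken over all reads listed, Mir26b remained higher in replicate 2, at 3754 and 4058, whereas Mir26a-1 had 59.6 in replicate 1 and 55.6 in replicate 2 and Mir26a-2 had 35.3 and 28.9. With Mir143, the most abundant gene, left out of the total, Mir26b had 22534 and 28109 CPM and Mir26a-1 had 358 and 385, while Mir26a-2 reversed to 212 and 200.4. The smooth muscle list, which holds Mir143, had 20.3% of counts in replicate 1 and 9.73% in replicate 2, and the striated muscle list had 2.79% and 4.65%. Beyond this removal of Mir143, the part of these lists in the ratios was not tested.

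Genes with the most similar levels were found by distance in log2(CPM + 1) over the 2 libraries, which is a match of level and not of pattern. Nearest to Mir26b were Mir10b (distance 0.431), Mir23b (0.675) and Mir30a (0.761), with means of 17600, 28213 and 31325 CPM. Nearest to Mir26a-1 were Mir351 (0.039), Mir15b (0.142) and Mir369 (0.270), at 318, 312 and 351 CPM. Nearest to Mir26a-2 were Mirlet7a-1 (0.071), Mirlet7f-1 (0.102) and Mir542 (0.138), at 171, 183 and 165 CPM. Mirlet7a-1 and Mirlet7f-1 also encode a mature strand that is present in another gene.

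The microRNA genes most like these in arrangement are Mir103-1, Mir103-2 and Mir107, which lie in introns of the paralogous pantothenate kinase genes Pank3, Pank2 and Pank1. There too, 2 genes encode the same mature strand and the third encodes its own. Mir107 had 503 and 508 CPM, Mir103-2 13.3 and 9.60 CPM, and Mir103-1 1 and 2 counts, under the floor of 3. Mir107 made up 97.3% (96.1 to 98.2) and 98.0% (97.01 to 98.7) of the counts of its group. The odds of Mir26b within its family against those of Mir107 within its group had a ratio of 1.09 (0.739 to 1.61) in replicate 1 and 0.988 (0.657 to 1.49) in replicate 2. No difference was detectable at this depth (two-sided Fisher's exact test, adjusted over 4 tests, p = 0.810 and p = 1). Both shares leave out reads that match both genes of a pair, so this test cannot compare the levels of the mature strands. Mir107 also shares a stretch of 20 nt with another microRNA gene, unlike Mir26b, so its counts may leave out reads that were not placed. The counts placed in Mir26b were 36.0 and 50.1 times those placed in Mir107.

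The pair Mir128-1 and Mir128-2, in R3hdm1 and Arpp21, shares a mature strand as the Mir26a pair does, but its placed counts were less even. Mir128-1 had 961 and 1873 counts and Mir128-2 had 138 and 307, ratios of 6.96 (5.82 to 8.39) and 6.10 (5.40 to 6.91). The ratio of Mir26a-1 to Mir26a-2 was smaller than that in both libraries, with odds ratios of 0.243 (0.194 to 0.304) and 0.315 (0.266 to 0.373). The adjusted p of these differences was 7.2e-38 and 1.1e-40 in the same exact test, against counting error only. How many reads of each pair were not placed is not recorded, so the test cannot compare how evenly the loci are expressed. The other listed genes in introns of paralogous hosts were Mir208a, Mir208b, Mir499, Mir218-1 and Mir218-2. Of the 10 in that list, 6 were detected, beside 278 of all 2202 genes, and 0 had a mean above that of Mir26b. Mir128-1, Mir218-1 and others of the list share sequence with another locus, so this order leaves out reads that were not placed.

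**Figure D5:**
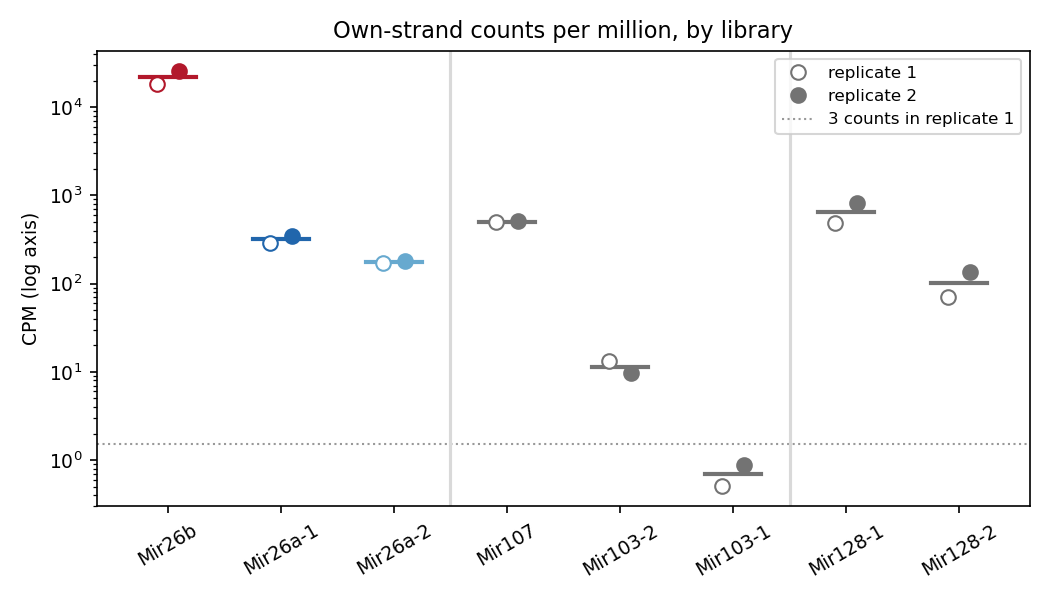
CPM on a log axis in replicate 1 (open points) and replicate 2 (filled points), with the mean as a line, for the miR-26 genes, the microRNA genes in Pank introns and the Mir128 pair. In the first and second groups the gene with a mature strand of its own, Mir26b or Mir107, is far above the genes that share theirs, on counts of reads placed in 1 gene.

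The family was also placed among seed groups that hold both kinds of gene, as a description with no test. Reads that match several loci are in no gene, so genes whose mature strand lies in several genes can lose reads by the way reads were counted, and the order of the 2 kinds is no finding. There were 11 seeds with a detected gene whose mature strand is found in 1 gene and with genes whose mature strand is found in several. Genes of let-7 were counted under a seed of each arm. In 10 of the 11, the most abundant gene of the first kind was above the most abundant of the second, though by only 0.0030 on the log2 scale in the miR-181 group. For miR-26 the log2 difference of mean CPM was 6.10. It was 8.39 for Mir29a over Mir29b-1 and 6.98 for Mir30a over Mir30c-2. In the group of Mir25 and Mir92 it was -0.87.

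A location inside a gene is common among microRNAs. Of the 278 detected genes, 120 (43.2%) lie within a protein-coding gene on the same strand, against 44.0% of all 2202. The median of their mean CPM was 157, and 95.4 for the other detected genes. Those of the 120 above Mir26b in mean CPM of placed reads were Mir126a, Mir378a, Mir22, Mirlet7g, Mir21a and Mir23b, so Mir26b was seventh among them.

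Among microRNAs described in myogenic differentiation, 28 of 30 listed genes were detected. Of these, 2 were called higher in replicate 2 (Mir499 and Mir208b), 1 was called lower (Mir31), and 25 were not called, beside 2.52% called higher and 9.35% called lower of all detected genes. The list's median log2 ratio was 0.36, against -0.03 over all detected genes. Mir206, a skeletal muscle microRNA, and Mir378a, of the Ppargc1b gene, were the only 2 of the list with a mean above that of Mir26b. Mir1a-2, Mir133a-1 and others of the list share sequence with another locus, as the Mir26a genes do, so this order also leaves out reads that were not placed.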

How the data were processed

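The deposited values are raw read counts per microRNA gene of GENCODE mouse release M21 on mm10, per the text files that the authors deposited. The aligner and the counter used are not named in the sources used here. Own-strand counts were used. Rows of unmapped, multiply aligned, ambiguous or unassigned reads stayed out of library sizes. Genes with at least 10 counts in each library were tested for replicate 2 over replicate 1 with an exact binomial test on TMM-scaled library sizes (edgeR 4.0.16), with a prior of 0.5 counts for log2 ratios and Benjamini-Hochberg adjustment over 278 genes. The quasi-likelihood test needs a second group and was not run. The test was checked on simulated counts with counting error alone, so that check does not cover the spread between these libraries. Odds ratios have Wald intervals. A chi-square of 568 per degree of freedom separated the libraries. Named were the members, the 3 genes nearest to each in level, the Pank and Mir128 genes and muscle markers; others were chosen after their values were seen. Members and lists were chosen with earlier results of these data known. Sequences and positions are from RefSeq and GENCODE; folds are from RNAfold 2.7.2. R 4.3.3, DESeq2 1.42.0, Python 3.11.15, scipy 1.17.1 and Biopython 1.88 were used.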

Additional observations from a re-analysis of the deposited data

Results flagged for a closer look

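Reads that aligned to several places lie outside the gene counts used and were far above 3 counts. Their share of the reads was 70.1% for replicate 1 and 72.3% for replicate 2. The files do not record how many of them match the run common to Mir26a-1 and Mir26a-2.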

How the results depend on the processing

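Of 59 alternative values for 10 results, 41 kept their direction, their side of the threshold or, for levels, stayed within 1 SD of the reported mean. Another 8 leave a replicate out of a level, which with 2 libraries cannot move it by 1 SD. None changed direction in the fitted ratios, and the reversals under other totals are given in the report. The family's share was 3.07% on reads of either strand, 3.07% without genes that overlap on the other strand and 0.400% of all reads listed. It ranged from 1.86% to 2.60% when a replicate was left out. Without a minimum fold, Mir26b at 0.53 and Mir26a-1 at 0.31 on the log2 scale counted as called, as did 154 genes in place of 33. With the estimated dispersion 7 genes were called, and with an assumed coefficient of variation of 0.2 there were 22. At 0.2 the adjusted p of edgeR's exact test was 0.708, 0.919 and 0.986 for Mir26b, Mir26a-1 and Mir26a-2. In both settings Mir26b and Mir26a-1 counted as kept only because they were not called in the main test either. Their adjusted p in the main test was under 0.05. The log2 ratio of Mir26a-1 over Mir26a-2 was 0.85, 0.76 to 0.94 with a replicate left out, and 0.75 per base of hairpin, an alternative chosen after seeing the data. No paired analysis was possible because there is 1 group. Counting error is small at this depth, and 2 libraries limit the precision.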
